A study of Pseudotaxus chienii with 9 samples.

Results

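Pseudotaxus chienii is a conifer related to the yews, and its leaves were compared after methyl jasmonate (MeJA) treatment and without it. All 6 libraries of MeJA-treated leaves, 3 labelled 1 day of treatment and 3 labelled 2 days, were taken as a single treated group and set against the 3 libraries labelled CK, across every gene of the table. The rule used the labels only and no measured value, and the 9 libraries are the whole series. The question was which genes stood higher or lower in treated leaves whichever day they were taken. No MeJA is named in the label of CK leaves. The sources used here give neither the MeJA dose, nor when CK leaves were taken, nor any mock treatment of CK, and handling or time cannot be told apart from MeJA. Libraries are called CK1, CK2 and CK3, 1d1, 1d2 and 1d3, and 2d1, 2d2 and 2d3. Nothing in the labels ties each library to its own plant, and p-values therefore reflect variation among these 9 libraries, possibly technical in part.

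MeJA is taken up by plant cells and turned into jasmonoyl-isoleucine, the form of the hormone that the receptor binds. The bound receptor marks JAZ (TIFY) repressors for degradation, which frees MYC2 and other transcription factors to act on wound and defence genes. Lipoxygenase, allene oxide synthase and OPDA reductase are steps of jasmonate synthesis, and their genes are themselves targets of the pathway in Arabidopsis. In yews, jasmonates are widely used on cell cultures to raise taxanes, the diterpenoids that include paclitaxel.

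Treated leaves differed from CK in 2121 genes (9.48% of those tested), and most of the called genes were higher. Of 22384 genes tested (26827 in the table), 1468 were higher and 653 lower in treated leaves at an adjusted p under 0.05 in edgeR's quasi-likelihood test with Benjamini-Hochberg adjustment, which is 6.56% and 2.92% of the genes tested. A gene was counted as separated when its lowest treated FPKM (the authors' length- and depth-scaled fragment values) lay above its highest CK FPKM, or its highest treated below its lowest CK. Called and separated genes, the shared response described here, numbered 2040 (9.11%), with 1401 higher (6.26%) and 639 lower (2.85%). Separation alone was far more common, with 2318 genes higher (10.4%) and 3772 lower (16.9%), and that order depended on the unit. On CPM (counts scaled to library size) with TMM factors, 2926 were separated higher and 2765 lower.

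The higher genes moved further than the lower ones. The median log2 fold change of the shared higher genes was 2.63 (quartiles 1.68 and 3.996), and 582 of them were at or beyond 3. The shared lower genes had a median of -1.25 (quartiles -1.89 and -0.90), with 38 at or beyond -3. The share of calls that were higher was 69.2%, but 50.8% with upper-quartile scaling (1360 higher and 1316 lower), which moved the median of all genes from 0.05 to -0.10, and 55.0% in limma on log2(FPKM + 1) (1415 and 1159). The counts also rested on the CK libraries: 420 genes were called higher and 141 lower without CK1, 691 and 132 without CK2, and 422 and 127 without CK3. Lower calls numbered 1062 without 1d2, 344 without 1d3, 402 without 2d1 and 428 without 2d3. The shared genes that were called without each of the 9 libraries were 333 higher and 75 lower.

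**Figure D1:**
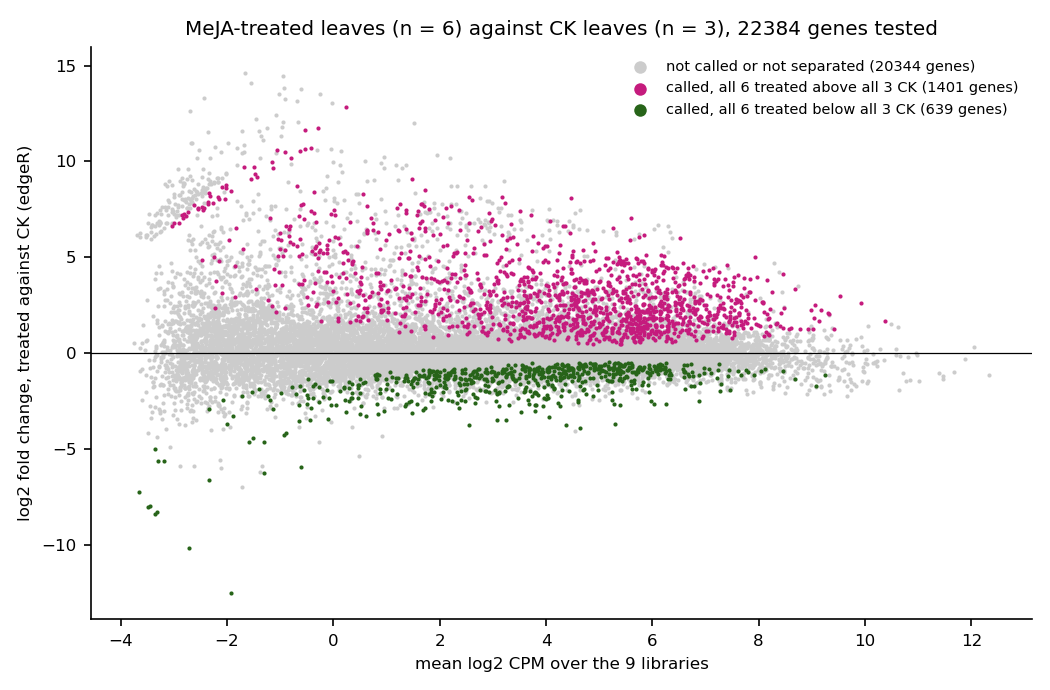
Each point is a tested gene, plotted by its mean level over the 9 libraries and by its log2 fold change in treated against CK leaves, with shared higher and lower genes coloured. The 1401 higher genes reach further from 0 than the 639 lower genes.

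The treated libraries were not alike in how far they stood from CK. Among the shared higher genes, 1d2 was the farthest treated library from CK for 590 and 2d2 for 339, and 1d1 was the nearest for 393. Among the shared lower genes, 1d2 was the farthest for 303 and 2d2 for 229. Of the 67 called higher genes that were not separated, 1d2 alone overlapped CK in 40 and 2d2 alone in 12. Without 1d2 and 2d2, 2272 genes were called and separated higher and 1517 lower. Separation was then asked of the remaining treated libraries only, which is a looser rule. By that rule alone 3258 genes were higher and 4301 lower, against 2318 and 3772 with all 9 libraries. Total counts were 48893949 to 58703021 per library, and that depth limits the lowest genes most.

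The shared genes were chosen for lying on 1 side of CK at both days, so their medians per day are a description. The median log2 of the shared higher genes was 2.63 at day 1 and 2.58 at day 2, and that of the shared lower genes -1.25 and -1.20, with the same CK libraries in both. In the taxane genes described below, which were not chosen in that way, the medians were 4.69 at day 1 and 7.34 at day 2. Relative to the CK mean, their mean log2 CPM was 5.45, 1.55 and 6.79 in 1d1, 1d2 and 1d3. It was 5.71, 9.49 and 7.44 in 2d1, 2d2 and 2d3, so 1d2 and 2d2 were the extremes. Medians of other lists went either way, from 2.16 to 1.65 for WRKY factors and from 0.97 to 1.46 for phenylpropanoid and lignin genes. Between day 2 and day 1, 0 genes were called by edgeR (0.0%, lowest adjusted p = 0.247), 949 genes (4.24%) had an unadjusted p under 0.05, and DESeq2 called 72. Separation was a matter of degree at its edge. A purine-uracil permease (PchiChr1G005200) had a highest CK level of 7.82 FPKM and a lowest treated level of 7.84, just inside, while a disease resistance protein with leucine-rich repeats (PchiChr6G189710) had 9.56 and 9.53, just outside. On the lower side an N-acetyltransferase HLS1 (PchiChr5G150090), with a lowest CK level of 5.47 and a highest treated level of 5.37, was just inside, and an anthranilate phosphoribosyltransferase (PchiChr11G314590), with 12.9 and 13.0, just outside.

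Leaf markers were present in every library. The summed level of the 21 genes for chlorophyll-binding proteins, the Rubisco small chain and oxygen-evolving proteins was 12318 to 15257 FPKM in CK and 886 (2d2) to 9304 (1d1) in treated leaves, where 1d2 was at 1149. None of the 17 tested members passed the test (at an unadjusted edgeR p under 0.05, 10 were lower), although 15 were separated lower (against 16.9% of all genes) and the median log2 of the 17 was -1.34. DESeq2 called 5 of them lower. In whole leaves, fewer cells of a type and less RNA per cell cannot be told apart. Summed guard cell markers (6 genes) were at 30.6 to 35.2 FPKM in CK and 21.2 to 38.1 in treated libraries, which overlap. Markers of secondary wall and wood (34 genes) summed to 59.5 to 68.1 and 134 to 214, and reproductive and seed markers (48 genes) to 466 to 629 and 976 to 3070.1, so both sums were higher in all 6 treated libraries. Without the pollen allergen copies the reproductive and seed sum was 425 to 586 in CK and 377 to 2258 in treated libraries, which overlap. Proteins named for other organisms (17 genes) summed to 726 to 806 and 645 to 1649. None of these lists had a member at 0 in every library, and their part in the results below was not tested.

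In what follows, the FPKM of a gene are given for CK1, CK2 and CK3 in that order, and for the treated libraries as the lowest, the median and the highest of the 6. Fold changes are on the log2 scale, and each named gene was called and separated in its direction unless said otherwise. The SE printed with them was worked back from the edgeR quasi-likelihood test. It is the absolute log2 fold change divided by the square root of the F statistic. It is therefore not a separately estimated standard error, and it carries no information on precision beyond that test. Called, higher and lower refer to edgeR where members of a list are counted. Numbers of called members can be read against the shares of all genes, 6.56% higher and 2.92% lower. Numbers of separated members can be read against 10.4% higher and 16.9% lower. Each library whose omission ended a call is named with the adjusted p it left, and genes for which no such library is named kept their call without each of the 9.

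Several genes of the jasmonate pathway were higher in treated leaves. Called members were 2 of the 8 tested synthesis genes (0 without CK1, CK2 or CK3 and 1 without 1d1, 1d3, 2d1 or 2d3), 3 of 11 signalling genes (1 without CK1 or CK3 and 5 without 1d2) and 2 of 5 CYP74 genes (0 without CK1, CK2 or CK3 and 1 without 2d1), the family of allene oxide synthase. No member was called lower in edgeR, while DESeq2 called 2 signalling genes lower and upper-quartile scaling 1 synthesis gene. Of the synthesis, signalling and CYP74 genes, 1, 2 and 0 were lower at an unadjusted edgeR p under 0.05. The CYP74 list was made after its values were seen. The median log2 of the synthesis list was 6.33 (6.08 with genes at 0 counts in CK or treated libraries set to their bound), and it ran from 3.72 (without 2d2) to 6.47 (without 2d1) over the libraries left out and was 0.79 in limma on log2(FPKM + 1). MYC2a (PchiChr2G047860, chromosome 2, block 1, 445536507 to 445539843), named for the central transcription factor of the response, was at 7.26, 9.90 and 5.19 FPKM in CK and at 28.9, 39.7 and 41.1 in treated leaves. All 6 treated libraries stood above CK (log2 2.47, SE 0.25, edgeR adjusted p = 0.00226), and the day estimates were 2.37 and 2.57. TIFY 9 (PchiChr3G086840), a JAZ repressor, was at 7.67, 9.28 and 1.87 FPKM in CK and at 95.4, 247 and 728 in treated leaves. No treated library came near CK (log2 5.99, SE 1.05, edgeR adjusted p = 0.0119). Its call ended without CK1 or CK3 (edgeR adjusted p = 0.0611 and 0.0545).

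The called synthesis genes varied widely between treated libraries. Lipoxygenase 1 (PchiChr2G052390), of the enzyme family that starts the pathway from linolenic acid, was at 0.590, 0.274 and 0.111 FPKM in CK and at 3.11, 14.2 and 225 in treated leaves. The lowest treated library was clear of CK, while the highest lay far above the rest (log2 7.39, SE 1.96, edgeR adjusted p = 0.0476). The call of PchiChr2G052390 ended without CK1, CK2, CK3, 1d1, 1d3, 2d1 or 2d3 (edgeR adjusted p = 0.137, 0.158, 0.170, 0.0562, 0.0621, 0.0640 and 0.0531), with a log2 of 8.10 without CK1 and 5.19 without 1d2. It was not called with no filter on low counts (edgeR adjusted p = 0.0536). 12-Oxophytodienoate reductase 7 (PchiChr7G216060), named for the step that reduces OPDA, was at 0 in all CK libraries and at 0.431, 0.911 and 4.63 FPKM in treated leaves. With 0 counts in all CK libraries, treated leaves were at least 119-fold higher than a floor of 3 counts over the CK group (log2 9.98, SE 1.73, edgeR adjusted p = 0.0177). Without CK1, CK2 or CK3 (edgeR adjusted p = 0.0611, 0.0511 and 0.0631) it was no longer called, with a log2 of 9.24 without 1d2. The gene missed the threshold on log2(FPKM + 1) (limma adjusted p = 0.0835). Of 2 copies named CYP74A74, the first (PchiChr4G104010) was at 0.922, 0.990 and 0.0944 FPKM in CK and at 4.05, 7.92 and 16.2 in treated leaves, and the second (PchiChr4G104110) was at 0.621, 0.202 and 0.0730 FPKM in CK and at 1.38, 3.15 and 11.8 in treated leaves. Neither overlapped CK, with log2 3.87, SE 0.84, edgeR adjusted p = 0.0246 for the first and log2 4.01, SE 0.96, edgeR adjusted p = 0.0345 for the second. The call of the first ended without CK1, CK2 or CK3 (edgeR adjusted p = 0.0883, 0.0702 and 0.0519). The call of the second ended without CK1, CK2, CK3 or 2d1 (edgeR adjusted p = 0.0611, 0.128, 0.118 and 0.0544), with a log2 of 5.06 without CK1 and 3.34 without 1d2.

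Genes of jasmonate turnover had 1 call in each direction (4.17% each), near the shares of all genes. Over the libraries left out, higher calls ran from 0 (without CK1 or CK3) to 4 (without CK2). DESeq2 called 6 higher and 2 lower. Among 24 tested, CYP94P7 (PchiChr9G254860), of the P450 family that oxidises jasmonoyl-isoleucine in Arabidopsis, was at 0.0230, 0.679 and 0.0611 FPKM in CK and at 1.41, 5.22 and 20.7 in treated leaves, which was higher (log2 4.95, SE 1.33, edgeR adjusted p = 0.0498). Its adjusted p missed the threshold without CK1, CK3, 1d1, 1d3, 2d1 or 2d3 (edgeR adjusted p = 0.140, 0.170, 0.0647, 0.0766, 0.0690 and 0.0693), with a log2 of 7.53 without CK2 and 4.19 without 1d2. It was not called with median-of-ratios scaling (edgeR adjusted p = 0.0512) or with no filter on low counts (edgeR adjusted p = 0.0566). CYP94D82 (PchiChr7G203650), of the same family, was at 87.0, 91.0 and 83.8 FPKM in CK and at 22.4, 38.6 and 60.3 in treated leaves, which was lower (log2 -1.03, SE 0.26, edgeR adjusted p = 0.0390). The call did not hold without CK1, CK2, CK3, 1d3, 2d1 or 2d3 (edgeR adjusted p = 0.110, 0.125, 0.117, 0.0574, 0.0686 and 0.0646). Both groups of libraries were separated for each gene, in opposite directions. In the list for ethylene and abscisic acid, 1 of 18, or 5.56% against 6.56% of all genes, passed (0 without CK1, CK2, CK3 or 2d3 and 4 without 1d2). This 9-cis-epoxycarotenoid dioxygenase (PchiChr5G149650), named for the step that limits abscisic acid synthesis, was at 0.0267, 0.0552 and 0.0424 FPKM in CK and at 0.170, 0.259 and 1.16 in treated leaves (log2 3.56, SE 0.85, edgeR adjusted p = 0.0344). Without CK1, CK2, CK3 or 2d3 (edgeR adjusted p = 0.135, 0.101, 0.131 and 0.0594) the call was lost, with a log2 of 2.97 without 1d2.

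WRKY factors, regulators of plant defence genes, were the transcription factor family with the highest share called among those listed. Of 31 tested, 16 were higher (6 without CK3 and 8 without CK1 or CK2) and 1 lower (0 without CK2 or CK3), with a median log2 of 1.87. WRKY transcription factor 41 (PchiChr10G284800) was at 4.39, 11.2 and 3.76 FPKM in CK and at 77.8, 130.4 and 185 in treated leaves, which left no overlap (log2 4.43, SE 0.51, edgeR adjusted p = 0.00301). Its log2 was 5.13 without CK2. WRKY transcription factor 69 (PchiChr8G237640) was at 9.53, 10.6 and 8.14 FPKM in CK and at 22.1, 30.8 and 37.9 in treated leaves, the smallest step of the named WRKY genes (log2 1.81, SE 0.22, edgeR adjusted p = 0.00323). A WRKY factor of a run of 4 neighbouring WRKY genes on chromosome 9 (PchiChr9G253810) was at 0, 0.329 and 0.127 FPKM in CK and at 12.1, 18.5 and 77.7 in treated leaves (log2 7.65, SE 1.32, edgeR adjusted p = 0.0110). Its call ended without CK3 (edgeR adjusted p = 0.0665), with a log2 of 7.06 without CK1, 8.97 without CK2 and 6.98 without 1d2.

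AP2/ERF, bHLH and MYB factors followed. Called higher were 16 of 60 AP2/ERF genes (3 without CK1, 4 without CK3 and 9 without CK2), 8 of 29 bHLH genes (4 without CK1 or CK3 and 5 without CK2), 9 of 72 MYB genes (4 without CK1) and 3 of 26 NAC genes (0 without CK1, CK2 or CK3). Lower in edgeR were 1 MYB gene (0 without CK1, CK2, CK3, 1d3 or 2d1 and 4 without 1d2) and no AP2/ERF, bHLH or NAC gene. DESeq2 called 4 AP2/ERF, 4 MYB, 0 bHLH and 0 NAC genes lower, and the AP2/ERF genes called lower by edgeR numbered 2 without 1d2 and 3 without 1d1. At an unadjusted edgeR p under 0.05, 4 AP2/ERF, 2 bHLH and 0 NAC genes were lower. ERF12 (PchiChr11G316130), an ethylene response factor, was at 40.98, 61.7 and 22.8 FPKM in CK and at 109, 209.7 and 273 in treated leaves (log2 2.37, SE 0.40, edgeR adjusted p = 0.0103). The call of PchiChr11G316130 ended without CK1 (edgeR adjusted p = 0.0611). A DREB1A-like factor (PchiChr11G303530), of the family that binds the dehydration-responsive element, was at 0 in all CK libraries and at 0.174, 0.866 and 1.24 FPKM in treated leaves, so that treated leaves were at least 32.8-fold above the floor (log2 8.02, SE 1.16, edgeR adjusted p = 0.0100). bHLH041 (PchiChr2G064150) was at 1.53, 1.31 and 1.004 FPKM in CK and at 9.02, 10.2 and 16.8 in treated leaves, a level at which every treated library exceeded CK (log2 3.31, SE 0.32, edgeR adjusted p = 0.00199).

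The bHLH112-like factor was nearest to its CK level in 2d2. This gene (PchiChr2G037800) was at 2.05, 1.82 and 1.62 FPKM in CK and at 4.02, 7.63 and 8.79 in treated leaves (log2 2.10, SE 0.24, edgeR adjusted p = 0.00281). Of the MYB factors, R2R3MYB8 (PchiChr5G142790) was at 8.78, 11.6 and 6.08 FPKM in CK and at 42.8, 90.9 and 96.6 in treated leaves (log2 3.36, SE 0.32, edgeR adjusted p = 0.00199), and R2R3MYB20 (PchiChr10G295880) was at 43.2, 38.0 and 32.7 FPKM in CK and at 101, 186 and 252 in treated leaves (log2 2.42, SE 0.27, edgeR adjusted p = 0.00281). Library 1d2 was the lowest treated library for both, and still above all CK libraries. NAC transcription factor 25 (PchiChr9G263680) was at 0.0932, 0.113 and 0 FPKM in CK and at 0.666, 1.99 and 7.49 in treated leaves (log2 5.45, SE 1.21, edgeR adjusted p = 0.0266). Without CK1, CK2 or CK3 (edgeR adjusted p = 0.102, 0.0813 and 0.0744) it was no longer called, with a log2 of 4.79 without 1d2. LOB-domain factors, regulators of organ boundaries and lateral organs, were called higher in 5 of 20 (2 without CK1, CK2 or CK3 and 3 without 1d3 or 2d1). The LOB-domain list was made after its values were seen. A LOB domain-containing protein 1-like gene (PchiChr12G328590) was at 0 in all CK libraries and at 1.51, 2.12 and 18.0 FPKM in treated leaves, at least 171-fold above the floor (log2 10.51, SE 1.97, edgeR adjusted p = 0.0228). Its adjusted p missed the threshold without CK1, CK2 or CK3 (edgeR adjusted p = 0.0744, 0.0659 and 0.0776), with a log2 of 9.26 without 2d2. Another LOB-domain gene (PchiChr12G332810) was at 3.92, 3.31 and 1.43 FPKM in CK and at 12.4, 16.7 and 20.5 in treated leaves, with no overlap (log2 2.64, SE 0.33, edgeR adjusted p = 0.00323).

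**Figure D2:**
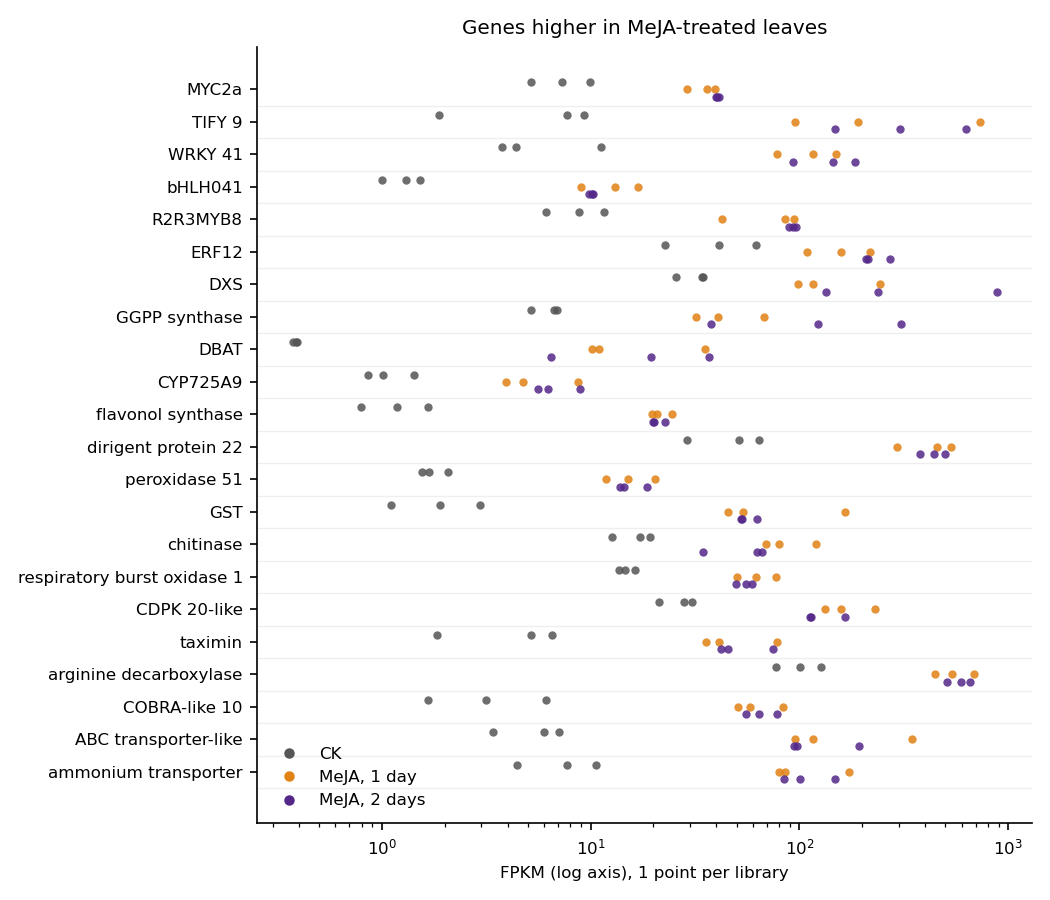
FPKM in each library, on a log axis, of genes higher in treated leaves, with CK and treated libraries marked by group. For MYC2a the treated libraries lie between 28.9 and 41.1 FPKM, all above the highest CK value of 9.90.

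Among the taxane genes, picked by name, most leaned upwards in treated leaves, but only some were called. Of 87 tested (108 in the table), 84 had positive estimates. The edgeR test called 19 higher (6 without CK3, 7 without CK1 and 31 without 1d2) and 0 lower, and 33 were separated higher, against 10.4% of all genes. At an unadjusted edgeR p under 0.05, 70 were higher and 1 lower, and DESeq2 called 61 higher and 1 lower. Those called by edgeR were mostly CYP725 genes, the P450 family of the taxane hydroxylases, with 16 of 33. The rest were taxane acyltransferases, with 3 of 29. Estimates were positive for 31 of the CYP725 genes and all 29 acyltransferases, at median log2 values of 6.37 and 6.53. At an unadjusted edgeR p under 0.05, 30 CYP725 genes and 25 acyltransferases were higher, and DESeq2 called 28 and 19 higher. None of the 5 genes for taxadiene synthase, which makes the taxane skeleton, passed, at a median log2 of 8.09. Of these 5, at an unadjusted edgeR p under 0.05, 2 were higher, and DESeq2 called 2. The mean log2 CPM of the list was -2.70, 1.75 and -2.66 in CK and 0.34 (1d2) to 8.29 (2d2) in treated libraries, so 1d2 lay below CK2. The list median was 6.54, and it ran from 5.25 (without 2d2) to 11.73 (without CK2) over the libraries left out.

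10-Deacetylbaccatin III 10-O-acetyltransferase (PchiChr11G300670, chromosome 11, block 1, 97823384 to 97824981), which makes baccatin III, was at 0.374, 0.392 and 0.386 FPKM in CK and at 6.46, 15.2 and 36.8 in treated leaves. Every treated library was far above the narrow CK range (log2 5.85, SE 0.82, edgeR adjusted p = 0.00467). A CYP725A9 gene (PchiChr11G315740), 1 of 5 neighbours of that name that were all called, was at 0.863, 1.02 and 1.43 FPKM in CK and at 3.93, 5.91 and 8.91 in treated leaves (log2 2.63, SE 0.34, edgeR adjusted p = 0.00368). Reads of such near-identical copies may be split between them in ways the table does not show. CYP725A13 (PchiChr9G256610) was at 0 in all CK libraries and at 0.310, 2.12 and 11.3 FPKM in treated leaves (log2 11.72, SE 2.37, edgeR adjusted p = 0.0282), so that treated leaves were at least 406-fold above the floor. The call did not hold without CK1, CK2, CK3 or 2d3 (edgeR adjusted p = 0.0884, 0.0800, 0.0904 and 0.0506), with a log2 of 10.81 without 2d2. The gene missed the threshold on log2(FPKM + 1) (limma adjusted p = 0.101).

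The called genes that supply terpenoid precursors were few in number but not in share, and each rested on the full set of CK libraries. Called higher were 1 of 7 mevalonate genes, 1 of 13 genes of the plastid MEP pathway and 2 of 9 prenyl diphosphate synthases and isopentenyl diphosphate isomerases. That is 14.3%, 7.69% and 22.2%, against 6.56% of all genes. In the same order, DESeq2 called 3, 4 and 5 higher, and 4, 4 and 5 were higher at an unadjusted edgeR p under 0.05. The list medians were 1.74, 0.21 and 1.12. Of the last list 1 gene, named isopentenyl diphosphate isomerase (PchiChr7G210910), was lower (log2 -0.51, edgeR adjusted p = 0.0396). No lower call was left there without CK1, CK2, CK3, 1d3, 2d1, 2d2 or 2d3. The other lists had none (for the plastid pathway DESeq2 called 1, and 1 had an unadjusted edgeR p under 0.05; for the mevalonate genes both counts were 0). HMG-CoA reductase (PchiChr10G292440), which limits the mevalonate pathway, was at 12.9, 10.8 and 10.6 FPKM in CK and at 18.7, 31.6 and 71.0 in treated leaves (log2 1.95, SE 0.44, edgeR adjusted p = 0.0287). Without CK1, CK2, CK3 or 2d1 (edgeR adjusted p = 0.103, 0.106, 0.119 and 0.0534) the call was lost. 1-Deoxy-D-xylulose-5-phosphate synthase (PchiChr10G274180), the entry enzyme of the plastid pathway, was at 25.8, 34.2 and 34.4 FPKM in CK and at 98.8, 185 and 881 in treated leaves (log2 3.36, SE 0.87, edgeR adjusted p = 0.0449). Its call ended without CK1, CK2, CK3, 1d3, 2d1 or 2d3 (edgeR adjusted p = 0.159, 0.142, 0.154, 0.0688, 0.0534 and 0.0658), with a log2 of 2.48 without 2d2. It was not called with no filter on low counts (edgeR adjusted p = 0.0507). A geranylgeranyl diphosphate synthase (PchiChr9G269020), which makes the precursor of diterpenes such as taxanes, was at 5.20, 6.89 and 6.66 FPKM in CK and at 31.9, 53.9 and 307 in treated leaves (log2 4.19, SE 0.95, edgeR adjusted p = 0.0285). The call of PchiChr9G269020 ended without CK1, CK2 or CK3 (edgeR adjusted p = 0.119, 0.104 and 0.117), with a log2 of 3.35 without 2d2. Its neighbour of the same name (PchiChr9G269010) was also higher (log2 4.48, SE 1.08, edgeR adjusted p = 0.0356). Without CK1, CK2, CK3, 1d3 or 2d3 (edgeR adjusted p = 0.140, 0.0997, 0.146, 0.0535 and 0.0576) it was no longer called, with a log2 of 3.50 without 2d2. Copalyl diphosphate synthase (PchiChr7G201060), which leads to gibberellins and other diterpenes, was at 2.45, 4.59 and 3.30 FPKM in CK and at 6.45, 15.2 and 22.2 in treated leaves (log2 2.21, SE 0.50, edgeR adjusted p = 0.0287). Its adjusted p missed the threshold without CK1, CK2, CK3 or 2d1 (edgeR adjusted p = 0.121, 0.0717, 0.119 and 0.0526).

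Among phenolic genes the called members were mainly dirigent proteins, which steer the coupling of lignan precursors and were listed after their values were seen. Of 38 tested, 13 were higher (3 without CK1 or CK3, 5 without CK2 and 6 without 2d1) and 0 lower (DESeq2 called 0, and 1 had an unadjusted edgeR p under 0.05), while of the 71 other phenylpropanoid and lignin genes 3 were higher and 2 lower. The median log2 of those 71 genes was 1.01, and 51 of them had positive estimates. At an unadjusted edgeR p under 0.05, 26 of the 71 were higher and 6 lower. DESeq2 called 20 of the 71 higher and 2 lower, and 23 of the 38 dirigent genes higher. None of 4 phenylalanine ammonia-lyase genes, the entry enzyme, passed. Of them, at an unadjusted edgeR p under 0.05, 2 were higher, and DESeq2 called 3 higher. Dirigent protein 22 (PchiChr2G041200) was at 51.4, 63.7 and 29.1 FPKM in CK and at 294, 449.9 and 532 in treated leaves (log2 3.31, SE 0.34, edgeR adjusted p = 0.00226). A dirigent protein 22-like gene (PchiChr12G333090) was at 25.04, 13.8 and 27.5 FPKM in CK and at 61.7, 92.7 and 131 in treated leaves (log2 2.23, SE 0.36, edgeR adjusted p = 0.00820). The treated libraries of both genes lay apart from CK. A shikimate O-hydroxycinnamoyltransferase (PchiChr1G008540), of the lignin branch, was at 98.7, 79.5 and 285 FPKM in CK and at 0.344, 9.94 and 18.8 in treated leaves, and was lower (log2 -3.92, SE 1.02, edgeR adjusted p = 0.0449). The call did not hold without CK1, CK2, CK3, 1d1, 1d3, 2d1 or 2d3 (edgeR adjusted p = 0.0982, 0.0869, 0.173, 0.0584, 0.0799, 0.0627 and 0.0633), with a log2 of -3.10 without CK3. The gene missed the threshold in the fit of 3 groups (edgeR adjusted p = 0.0565).

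Flavonoid genes went both ways. A flavonol synthase/flavanone 3-hydroxylase (PchiChr11G311480), which leads to flavonols, was at 1.19, 1.66 and 0.791 FPKM in CK and at 19.6, 20.5 and 24.5 in treated leaves (log2 4.26, SE 0.28, edgeR adjusted p = 6.68e-04). Leucoanthocyanidin reductase (PchiChr6G169620), which leads to catechin and proanthocyanidins, was at 2.80, 2.67 and 9.30 FPKM in CK and at 0.298, 0.458 and 0.877 in treated leaves, and was lower (log2 -3.18, SE 0.48, edgeR adjusted p = 0.00668). Its log2 was -2.30 without CK3. In all, 2 of 19 flavonoid genes were called higher (1 without CK1, CK2, CK3, 1d3, 2d1 or 2d3 and 4 without 1d2) and 1 lower (2 without 1d1).

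Class III peroxidases, secreted enzymes of wall cross-linking and defence, were called in 10 of 41 members (3 without CK3 and 4 without CK1), all higher in edgeR. Lower calls in edgeR numbered 1 without 1d1 or 2d2, DESeq2 called 2 lower, and 5 were separated lower (against 16.9% of all genes), 4 of the list having an unadjusted edgeR p under 0.05 and a lower estimate. Peroxidase 51 (PchiChr8G221830) was at 2.09, 1.69 and 1.55 FPKM in CK and at 11.8, 14.8 and 20.2 in treated leaves (log2 3.27, SE 0.23, edgeR adjusted p = 7.85e-04). Another peroxidase (PchiChr5G147320) was at 4.45, 3.98 and 2.94 FPKM in CK and at 36.9, 43.3 and 75.4 in treated leaves, with 1d2 highest (log2 3.79, SE 0.33, edgeR adjusted p = 0.00175), and it ended a run of 5 neighbouring peroxidase genes on chromosome 5 that were all higher. Glutathione transferases, which conjugate toxic compounds, were counted by their descriptions, 34 of 72 being described only as GST, after their values were seen. They were called higher in 7 (3 without CK1, 4 without CK2 or CK3 and 11 without 1d2) and lower in 1 (0 without CK1, CK3 or 2d3). The called phi class member (PchiChr5G135100) was at 26.6, 24.2 and 32.0 FPKM in CK and at 106, 146 and 390.0 in treated leaves (log2 2.83, SE 0.53, edgeR adjusted p = 0.0146). Without CK1, CK2 or CK3 (edgeR adjusted p = 0.0746, 0.0677 and 0.0674) the call was lost. A gene described only as GST (PchiChr5G128230) was at 1.90, 2.97 and 1.10 FPKM in CK and at 45.4, 53.6 and 165 in treated leaves (log2 5.33, SE 0.67, edgeR adjusted p = 0.00325). It had the second largest gap of any described gene between its lowest treated and highest CK library, and again 1d2 was highest.

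Genes named for defence proteins were called at about the share of all genes, with 6 of 114 higher (2 without CK2 or CK3 and 10 without 1d2) and 2 lower (0 without CK1, CK3, 2d1 or 2d3 and 1 without CK2, 1d1, 1d3 or 2d2). A gene described as acidic mammalian chitinase (PchiChr6G178690), a name taken from an animal match, was at 17.2, 19.3 and 12.6 FPKM in CK and at 34.5, 67.8 and 119.9 in treated leaves (log2 2.26, SE 0.36, edgeR adjusted p = 0.00814). A putative disease resistance protein (PchiChr1G019480) was at 2.30, 2.06 and 1.30 FPKM in CK and at 4.83, 9.06 and 14.9 in treated leaves (log2 2.49, SE 0.37, edgeR adjusted p = 0.00624). Lists picked after their values were seen had larger shares called higher. Copies of pollen major allergen No.121 were called higher in 11 of 16 (3 without CK1), genes named apoptosis-inducing factor in 7 of 8 (0 without CK3 and 1 without CK1 or CK2) and DMR6-like oxygenases, whose Arabidopsis namesake limits immunity, in 3 of 10 (0 without CK1, CK2 or CK3 and 1 without 2d1). A further allergen copy (PchiChr5G131570) was called lower (log2 -0.71, edgeR adjusted p = 0.0372), a call that ended without CK1, CK2, 1d3, 2d1, 2d2 or 2d3.

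The allergen copies had some of the widest gaps from CK. The copy with the widest gap (PchiChr1G029230) was at 2.76, 3.78 and 0.173 FPKM in CK and at 53.9, 74.3 and 103 in treated leaves (log2 5.20, SE 0.85, edgeR adjusted p = 0.00875). Its log2 was 5.85 without CK2. Its neighbour (PchiChr1G029220) was at 2.01, 2.48 and 0.109 FPKM in CK and at 37.2, 44.7 and 112 in treated leaves (log2 5.35, SE 0.95, edgeR adjusted p = 0.0124). Its call ended without CK1 (edgeR adjusted p = 0.0606). Summed over the copies, the level was 11.9 to 58.6 FPKM in CK and 489 to 908 in treated leaves. Copies so alike may share reads. An apoptosis-inducing factor homolog (PchiChr2G063380) was at 6.81, 4.57 and 5.69 FPKM in CK and at 68.4, 87.8 and 391 in treated leaves (log2 5.08, SE 0.90, edgeR adjusted p = 0.0122). The call of PchiChr2G063380 ended without CK1, CK2 or CK3 (edgeR adjusted p = 0.0611, 0.0590 and 0.0676). A DMR6-like oxygenase 2 (PchiChr2G060710) was at 0, 0.162 and 0.223 FPKM in CK and at 2.58, 5.64 and 35.4 in treated leaves (log2 6.42, SE 1.46, edgeR adjusted p = 0.0287). Without CK1, CK2 or CK3 (edgeR adjusted p = 0.0801, 0.104 and 0.0977) it was no longer called, with a log2 of 7.13 without CK3 and 5.33 without 2d2.

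Receptor-like kinases, the membrane sensors of pathogens and peptides, gave the largest number of calls of any list. Of 392 tested, 59 were higher (14 without CK3, 17 without CK1, 23 without CK2 and 39 without 2d1) and 13 lower (2 without CK1, 4 without CK2 or CK3, 5 without 1d3, 7 without 2d1 and 25 without 1d2). The list median was 0.14, or -0.01 with upper-quartile scaling, so the list as a whole had no steady direction. The subgroups below were picked after their values were seen. G-type lectin S-receptor-like kinases were called higher in 17 of 59 (3 without CK3, 4 without CK1, 5 without CK2, 10 without 2d1 and 11 without 2d3) and lower in 4 (2 without CK1, CK2, 1d1 or 1d3), and kinases named LEAF RUST 10 disease-resistance locus in 7 of 19 (1 without CK3, 2 without CK1 or CK2 and 4 without 1d3, 2d1 or 2d3) and 1.

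PERK8 (PchiChr12G330530), a proline-rich kinase thought to sense the cell wall, was at 5.31, 6.45 and 4.13 FPKM in CK and at 18.7, 21.2 and 27.9 in treated leaves (log2 2.22, SE 0.23, edgeR adjusted p = 0.00226). An S-receptor-like kinase (PchiChr1G007020) was at 0.345, 0.362 and 0.157 FPKM in CK and at 3.38, 6.12 and 9.58 in treated leaves (log2 4.59, SE 0.50, edgeR adjusted p = 0.00231), and another, SD2-5 (PchiChr1G017120) was at 3.59, 3.14 and 3.31 FPKM in CK and at 0.533, 0.973 and 1.09 in treated leaves, in the opposite direction (log2 -1.76, SE 0.22, edgeR adjusted p = 0.00323). A LEAF RUST 10 kinase (PchiChr3G071910) was at 4.30, 5.28 and 2.72 FPKM in CK and at 29.9, 43.1 and 71.1 in treated leaves (log2 3.59, SE 0.38, edgeR adjusted p = 0.00226). For each of these 4 kinases the CK and treated libraries did not overlap.

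Genes of calcium, peptide and oxidative signalling, also listed after their values were seen, were called only higher. Calcium sensors and calcium-dependent kinases were called in 8 of 43 (5 without CK1 or CK3) and peptide signals in 5 of 15 (2 without CK1 and 3 without CK2), with none lower in edgeR or DESeq2. At an unadjusted edgeR p under 0.05, 2 and 0 were lower. A calcium-dependent protein kinase (PchiChr2G047470) was at 23.6, 20.5 and 19.9 FPKM in CK and at 57.9, 94.8 and 109.6 in treated leaves (log2 2.17, SE 0.23, edgeR adjusted p = 0.00229). CML25 (PchiChr7G200730), a calmodulin-like sensor, was at 5.60, 5.56 and 0.702 FPKM in CK and at 39.0, 78.5 and 81.3 in treated leaves, with 1d1 the lowest treated library (log2 4.33, SE 0.67, edgeR adjusted p = 0.00696). Respiratory burst oxidase (PchiChr3G092470), which makes the superoxide of the oxidative burst, was at 14.6, 13.6 and 16.3 FPKM in CK and at 49.8, 57.5 and 77.0 in treated leaves (log2 2.12, SE 0.20, edgeR adjusted p = 0.00199). Callose synthase 12 (PchiChr12G328060), which lays down callose at wounds and infection sites in Arabidopsis, was at 8.47, 6.95 and 4.94 FPKM in CK and at 10.02, 13.0 and 13.5 in treated leaves (log2 1.02, SE 0.18, edgeR adjusted p = 0.0119).

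Of the peptides, taximin (PchiChr5G154230), a small secreted peptide known from Taxus cell cultures, was at 5.16, 6.53 and 1.83 FPKM in CK and at 35.7, 44.0 and 78.4 in treated leaves (log2 3.70, SE 0.50, edgeR adjusted p = 0.00429). A phytosulfokine precursor (PchiChr11G301720), of a sulfated growth peptide, was at 0, 0.0529 and 0 FPKM in CK and at 1.496, 3.91 and 7.78 in treated leaves (log2 7.75, SE 1.18, edgeR adjusted p = 0.00664). Its log2 was 10.32 without CK2. No CK library reached the treated range in either. U-box ubiquitin ligases were called higher in 11 of 44 (2 without CK3, 3 without CK1 and 5 without CK2) and lower in 2 (1 without CK1, CK2, CK3 or 2d1), and F-box genes were higher in 11 of 129 (1 without CK1, 3 without CK3, 6 without CK2, 2d1 or 2d3 and 7 without 1d3) and lower in 11 (1 without CK1 or CK3, 2 without CK2, 5 without 2d1, 6 without 1d3 and 7 without 1d1 or 2d2). The U-box and F-box lists were made after their values were seen. A U-box protein (PchiChr12G335150) was at 5.51, 4.28 and 2.05 FPKM in CK and at 27.5, 50.04 and 68.0 in treated leaves (log2 3.78, SE 0.40, edgeR adjusted p = 0.00226).

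Cell wall genes were called in 7 of 107 members higher (2 without CK1, 4 without CK3 and 15 without 1d2) and 1 lower (0 without CK1, CK2, CK3, 1d3, 2d1 or 2d3, 3 without 2d2 and 5 without 1d2), close to the share of all genes. COBRA-like protein 10 (PchiChr3G071500), of a family that orients cellulose, was at 3.15, 6.12 and 1.67 FPKM in CK and at 50.8, 60.9 and 83.4 in treated leaves (log2 4.28, SE 0.45, edgeR adjusted p = 0.00226). Its log2 was 4.91 without CK2. A cellulose synthase-like protein (PchiChr7G207400) was at 9.31, 7.84 and 5.66 FPKM in CK and at 19.3, 28.4 and 32.7 in treated leaves (log2 1.96, SE 0.25, edgeR adjusted p = 0.00342). Both lay clear of CK in all 6 treated libraries. Of the 100 tested cutin and wax genes, 7 were higher (3 without CK1 or CK3 and 4 without CK2 or 2d1) and 3 lower (0 without CK2, 1 without CK1, CK3 or 1d3 and 5 without 1d2), close to the shares of all genes. The list was picked by name, and 45 of it were P450s of the CYP866 and CYP867 families. These held 4 of the higher calls and 1 of the lower. Whether these families act on cutin or wax was not tested. CYP867B5 (PchiChr3G088330) was at 5.92, 8.19 and 3.28 FPKM in CK and at 43.2, 56.9 and 116 in treated leaves (log2 3.67, SE 0.49, edgeR adjusted p = 0.00407).

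Calls among the other P450 genes went both ways. Of 270 tested, 25 were higher (5 without CK1 or CK3, 7 without CK2 and 39 without 1d2) and 15 lower (1 without CK2 or CK3, 3 without CK1 and 9 without 1d3 or 2d3). CYP728 genes were higher in 8 of 13, and these 8 were neighbours of the same name, CYP728Q13, on chromosome 10, with log2 fold changes of 2.76 to 3.27. CYP76 genes were higher in 5 of 38 and lower in 0 (DESeq2 called 0, and 2 had an unadjusted edgeR p under 0.05), CYP750 genes higher in 5 and lower in 6 of 53, and CYP704 genes lower in 4 of 5. CYP76AA66 (PchiChr8G230140) was at 10.2, 6.75 and 11.0 FPKM in CK and at 19.8, 32.4 and 38.5 in treated leaves (log2 1.78, SE 0.25, edgeR adjusted p = 0.00491).

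Some transport genes changed by large factors. Transporters other than the ABC family were higher in 21 of 272 (5 without CK1 or CK3 and 8 without CK2) and lower in 2 (0 without CK1 or CK2, 1 without CK3, 1d3, 2d1, 2d2 or 2d3 and 4 without 1d2). ABC transporters, which move many secondary compounds, were higher in 4 of 87 (1 without CK1 or CK3 and 2 without CK2) and lower in 1 (0 without CK1 or CK2 and 3 without 1d2). An ABC transporter-like gene (PchiChr12G335810, chromosome 12, block 500000001, 194978339 to 194985825) was at 5.98, 7.02 and 3.42 FPKM in CK and at 94.2, 107 and 344 in treated leaves. This was the widest gap between CK and treated libraries of all described genes (log2 5.02, SE 0.70, edgeR adjusted p = 0.00466). Another ABC transporter-like gene (PchiChr12G330160) was at 2.85, 2.02 and 0.742 FPKM in CK and at 0 in all treated libraries, and with 0 counts in all treated libraries it was at least 87.0-fold lower there (log2 -8.36, SE 1.00, edgeR adjusted p = 0.0216). Its adjusted p missed the threshold without CK1, CK2 or CK3 (edgeR adjusted p = 0.0984, 0.0921 and 0.0734). An ammonium transporter (PchiChr10G283910) was at 10.6, 7.73 and 4.43 FPKM in CK and at 79.5, 92.9 and 174 in treated leaves (log2 4.05, SE 0.48, edgeR adjusted p = 0.00312). Zinc transporter 4 (PchiChr8G241120) was at 4.92, 3.61 and 2.56 FPKM in CK and at 12.2, 17.2 and 22.4 in treated leaves (log2 2.37, SE 0.26, edgeR adjusted p = 0.00271).

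Glycosyltransferases, which attach sugars to small molecules, were higher in 8 of 89 (3 without CK1) and lower in 0 (DESeq2 called 4, and 8 had an unadjusted edgeR p under 0.05). Lower calls numbered 1 without 1d2 or 2d3, and 11 genes were separated lower, against 16.9% of all genes. A UDP-glycosyltransferase (PchiChr7G202660) was at 0.184, 0.367 and 0.120 FPKM in CK and at 1.47, 2.24 and 3.82 in treated leaves (log2 3.52, SE 0.53, edgeR adjusted p = 0.00630). Polyamine genes, listed after their values were seen, were higher in 3 of 13 and lower in 1 (0 without CK1, CK2, 1d3, 2d1, 2d2 or 2d3). Arginine decarboxylase (PchiChr9G265550), which starts a route to putrescine, was at 126, 101 and 76.8 FPKM in CK and at 448, 565 and 688 in treated leaves (log2 2.64, SE 0.31, edgeR adjusted p = 0.00318). An S-adenosylmethionine decarboxylase (PchiChr6G181570), which supplies the aminopropyl groups of spermidine and spermine, was at 412, 208 and 274 FPKM in CK and at 675, 843 and 1055 in treated leaves (log2 1.66, SE 0.31, edgeR adjusted p = 0.0145). The call did not hold without CK2 or CK3 (edgeR adjusted p = 0.0744 and 0.0831). A second gene of that name (PchiChr7G214880) was at 0 in all CK libraries and at 0.512, 0.705 and 0.889 FPKM in treated leaves, at least 32.3-fold above the floor (log2 8.03, SE 0.80, edgeR adjusted p = 0.00323). S-adenosylmethionine synthase and related genes, listed after their values were seen, were higher in 4 of 8 (0 without CK1 or CK2, 1 without CK3, 1d1 or 2d1 and 2 without 2d2 or 2d3).

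**Figure D3:**
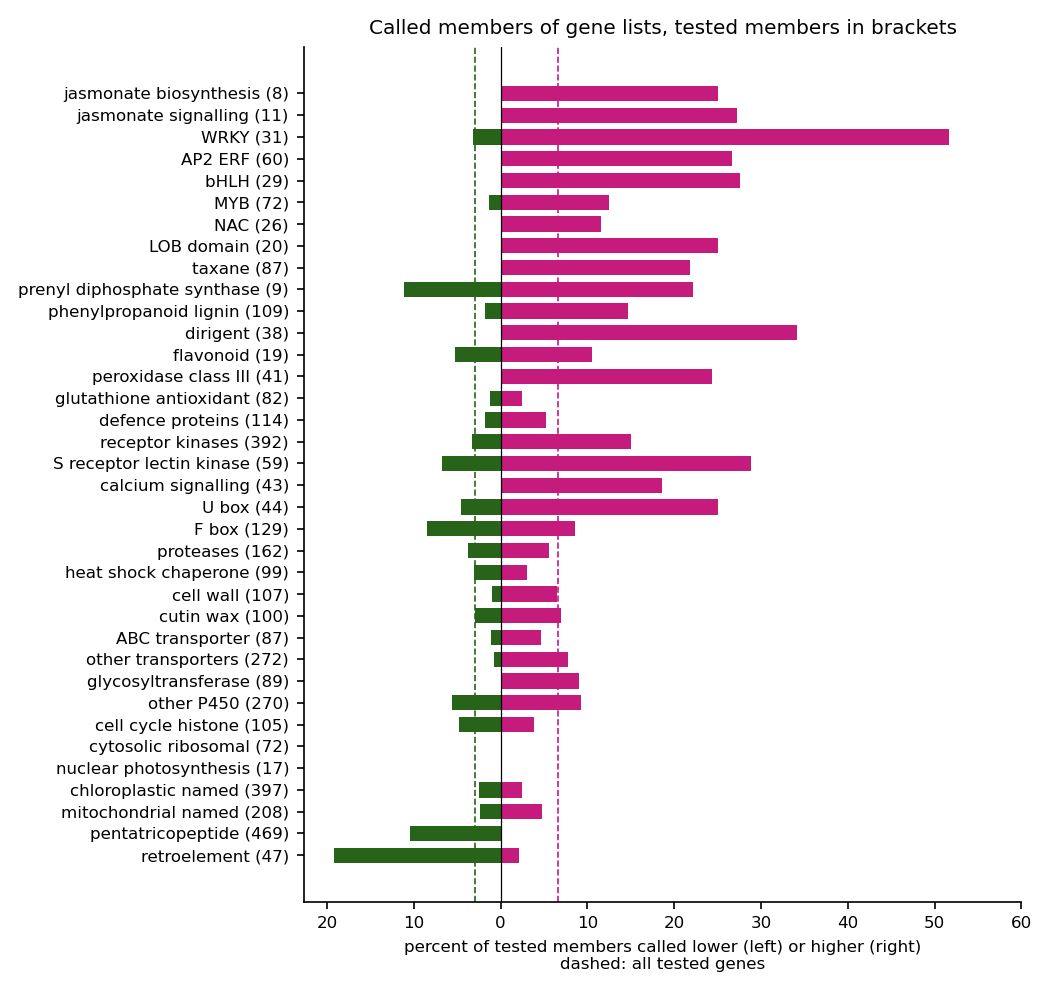
Percent of the tested members of each gene list that were called higher (bars to the right) or lower (bars to the left) in treated leaves, with dashed lines at the shares of all genes tested. The WRKY bar reaches 51.6% higher and the pentatricopeptide bar 10.4% lower.

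The gene list with the most lower calls was that of pentatricopeptide repeat proteins, RNA-binding proteins that edit, splice and stabilise the transcripts of chloroplasts and mitochondria. Of 469 tested, 49 were lower and 0 higher, which is 10.4% lower against 2.92% of all genes. Of its members, at an unadjusted edgeR p under 0.05, 5 were higher, and DESeq2 called 3 higher. The lower calls numbered 5 without CK1 or CK2, 9 without CK3, 26 without 2d3, 27 without 1d3, 31 without 2d1 and 102 without 1d2. Negative estimates were found for 421 members (89.8%), against 47.4% of all genes. Separated lower were 255 (54.4%), against 16.9% of all genes, while 2 were separated higher. The median log2 was -0.66 (quartiles -0.96 and -0.36), and it stayed between -0.81 and -0.49 under every scaling, tool and left-out library tried. The list was made after these values were seen, and its count is a description.

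The lower level was modest per gene and spread over the genome. Summed FPKM of the family was 1935 to 2144 in CK and 708 (1d2) to 1431 (1d1) in treated libraries, with no overlap. Relative to the CK mean, the mean log2 CPM of the members was -0.09 to 0.07 in CK and -1.45 to -0.48 in treated libraries. Members were found on all 12 chromosomes, as were called members. Most were expressed at low levels, with a median of 1.82 FPKM in CK. Genes of 1 to 20 FPKM in general had a median log2 of 0.02, and 3.42% of 12469 were called lower. Of the 469 tested members, 291 were in that range, while the figures of the family are over all 469.

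A pentatricopeptide repeat gene (PchiChr12G336010) was at 2.63, 2.64 and 2.63 FPKM in CK and at 0.808, 1.11 and 1.26 in treated leaves (log2 -1.16, SE 0.17, edgeR adjusted p = 0.00615). Another (PchiChr11G316570) was at 2.44, 2.88 and 2.77 FPKM in CK and at 0.461, 0.884 and 1.05 in treated leaves (log2 -1.57, SE 0.24, edgeR adjusted p = 0.00638), and another (PchiChr5G150370) was at 5.61, 5.60 and 3.85 FPKM in CK and at 1.15, 1.31 and 2.38 in treated leaves (log2 -1.59, SE 0.27, edgeR adjusted p = 0.00999). Without CK1 (edgeR adjusted p = 0.0511) the call was lost. All 6 treated libraries were below all CK libraries in each. Chlororespiratory reduction 41 (PchiChr5G138180), named for an assembly factor of the chloroplast NDH complex in Arabidopsis, was at 20.8, 22.5 and 19.4 FPKM in CK and at 0.761, 2.76 and 5.91 in treated leaves (log2 -2.60, SE 0.55, edgeR adjusted p = 0.0229). Its call ended without CK1, CK2 or CK3 (edgeR adjusted p = 0.0744, 0.0748 and 0.0774). The related organelle transcription termination factors (mTERF) were lower in 2 of 19 (0 without CK1, CK2, CK3 or 2d1 and 1 without 1d3, 2d2 or 2d3), with a median of -0.83. The mTERF list, and those of chloroplastic and mitochondrial names, were made after their values were seen. Of 397 genes whose description says chloroplastic, 10 were higher (5 without CK1 and 6 without CK2 or CK3) and 10 lower (1 without CK1 or CK2, 2 without CK3, 5 without 2d1, 6 without 1d3 or 2d3 and 29 without 1d1), at a median of -0.39. That is 2.52% each way, against 6.56% higher and 2.92% lower of all genes. Of these 397 genes, 138 were separated lower, against 16.9% of all genes. Of 208 named mitochondrial, 10 were higher (0 without CK1 or CK3, 1 without CK2, 5 without 1d3 and 6 without 2d1 or 2d3) and 5 lower (0 without CK1, CK2 or CK3, 2 without 1d3, 3 without 2d1, 8 without 1d1 and 9 without 1d2), at a median of -0.09. These shares, 4.81% and 2.40%, were also below those of all genes.

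**Figure D4:**
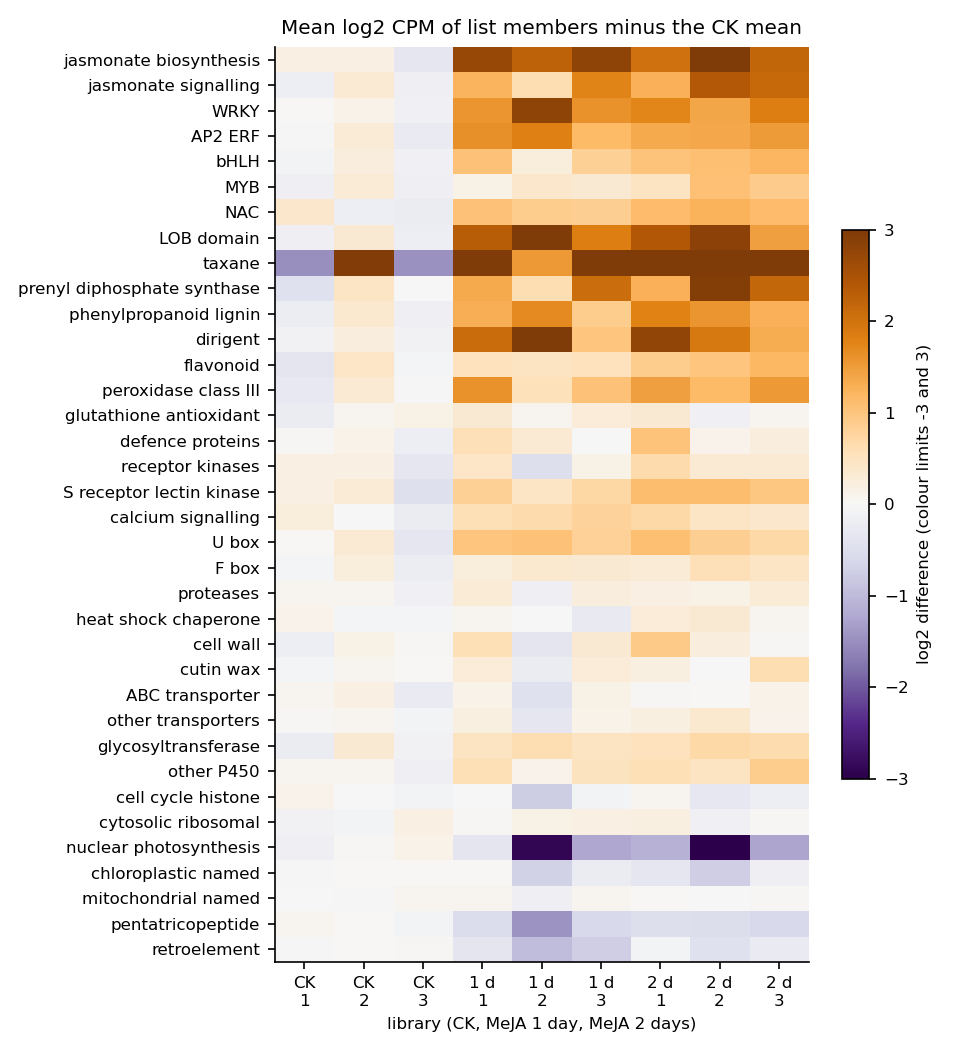
Each cell is the mean log2 CPM of the members of a gene list (rows) in a library (columns), minus the mean of the CK libraries, with colour limits at -3 and 3. Pentatricopeptide genes were below CK in all 6 treated libraries, from -1.45 to -0.48.

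Single genes of the chloroplast and of protein turnover were lower by larger factors. FTSH2 (PchiChr10G282200, chromosome 10, block 1, 201055254 to 201059596), a chloroplast protease that repairs photosystem II, was at 58.0, 132 and 82.4 FPKM in CK and at 1.54, 7.47 and 11.8 in treated leaves. No treated library reached CK (log2 -3.68, SE 0.53, edgeR adjusted p = 0.00523). Magnesium-chelatase subunit ChlD (PchiChr5G140700), of chlorophyll synthesis, was at 26.0, 23.1 and 22.2 FPKM in CK and at 4.40, 9.22 and 16.0 in treated leaves (log2 -1.22, SE 0.31, edgeR adjusted p = 0.0416). The call of PchiChr5G140700 ended without CK1, CK2, CK3, 1d3, 2d1 or 2d3 (edgeR adjusted p = 0.131, 0.117, 0.118, 0.0620, 0.0703 and 0.0702). MIEL1 (PchiChr4G102480), an E3 ubiquitin ligase that restrains defence in Arabidopsis, was at 10.3, 9.85 and 15.3 FPKM in CK and at 0.780, 2.10 and 2.44 in treated leaves, with 2d2 lowest (log2 -2.51, SE 0.31, edgeR adjusted p = 0.00323). An AP2/B3-like factor (PchiChr12G329690) was at 11.1, 9.76 and 11.7 FPKM in CK and at 0.817, 1.76 and 2.59 in treated leaves (log2 -2.50, SE 0.32, edgeR adjusted p = 0.00351). RING-H2 ubiquitin ligases, listed after their values were seen, were lower in 4 of 13 (1 without CK1, CK2 or CK3 and 2 without 1d3, 2d1 or 2d2), among them ATL47 (PchiChr8G225700), at 2.63, 3.37 and 6.21 FPKM in CK and 0.121, 0.306 and 0.466 in treated leaves (log2 -3.51, SE 0.47, edgeR adjusted p = 0.00423).

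Phosphate-related genes, listed after their values were seen, were lower in 3 of 21 and higher in 1 (0 without CK1, CK2 or CK3). SPX proteins bind inositol phosphates and report the phosphate status of the cell. SPX domain-containing protein 4 (PchiChr10G287380) was at 24.9, 12.0 and 20.4 FPKM in CK and at 0, 0.260 and 0.611 in treated leaves (log2 -5.95, SE 1.28, edgeR adjusted p = 0.0239). Without CK1, CK2 or CK3 (edgeR adjusted p = 0.0836, 0.0596 and 0.0822) it was no longer called. SPX domain-containing protein 5 (PchiChr2G064540) was at 0.458, 0.383 and 0.422 FPKM in CK and at 0.0164, 0.0279 and 0.0713 in treated leaves (log2 -3.25, SE 0.46, edgeR adjusted p = 0.00523). A probable inactive purple acid phosphatase (PchiChr5G154320) was at 12.9, 17.8 and 16.0 FPKM in CK and at 4.23, 5.78 and 7.63 in treated leaves (log2 -1.30, SE 0.18, edgeR adjusted p = 0.00481). All 3 were separated lower.

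Several of the most abundant lower genes carry names of dormancy, day length or sugar metabolism. The auxin-repressed protein (PchiChr10G287090) was at 1084, 1104 and 845 FPKM in CK and at 153, 299 and 403 in treated leaves (log2 -1.71, SE 0.33, edgeR adjusted p = 0.0165). Its adjusted p missed the threshold without CK1, CK2 or CK3 (edgeR adjusted p = 0.0677, 0.0667 and 0.0559). A dormancy/auxin associated-like gene (PchiChr3G076750) was at 391, 809.9 and 624 FPKM in CK and at 32.4, 84.8 and 164 in treated leaves (log2 -2.62, SE 0.46, edgeR adjusted p = 0.0121). The call did not hold without CK3 (edgeR adjusted p = 0.0508). Both are of the same small family and both were separated. Constans-like 1 (PchiChr7G210180), of the family that reads day length, was at 179, 196 and 240.0 FPKM in CK and at 71.8, 107 and 144 in treated leaves (log2 -0.87, SE 0.22, edgeR adjusted p = 0.0439). Without CK1, CK2, CK3, 1d1, 1d3, 2d2 or 2d3 (edgeR adjusted p = 0.0935, 0.125, 0.179, 0.0666, 0.0691, 0.0583 and 0.0598) the call was lost. It was not called in the fit of 3 groups (edgeR adjusted p = 0.0525). Sucrose-phosphate synthase (PchiChr9G251900), which makes sucrose, was at 280.0, 245 and 328 FPKM in CK and at 83.0, 112 and 198 in treated leaves (log2 -1.14, SE 0.28, edgeR adjusted p = 0.0397). Its call ended without CK1, CK2, CK3, 1d1, 1d3, 2d1 or 2d2 (edgeR adjusted p = 0.117, 0.0988, 0.159, 0.0561, 0.0731, 0.0718 and 0.0550). The gene missed the threshold in the fit of 3 groups (edgeR adjusted p = 0.0522). A universal stress protein (UspA) (PchiChr12G322770) was at 35.8, 41.7 and 53.3 FPKM in CK and at 0.416, 3.63 and 9.40 in treated leaves (log2 -3.46, SE 0.71, edgeR adjusted p = 0.0208). The call of PchiChr12G322770 ended without CK1, CK2 or CK3 (edgeR adjusted p = 0.0602, 0.0593 and 0.0787).

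**Figure D5:**
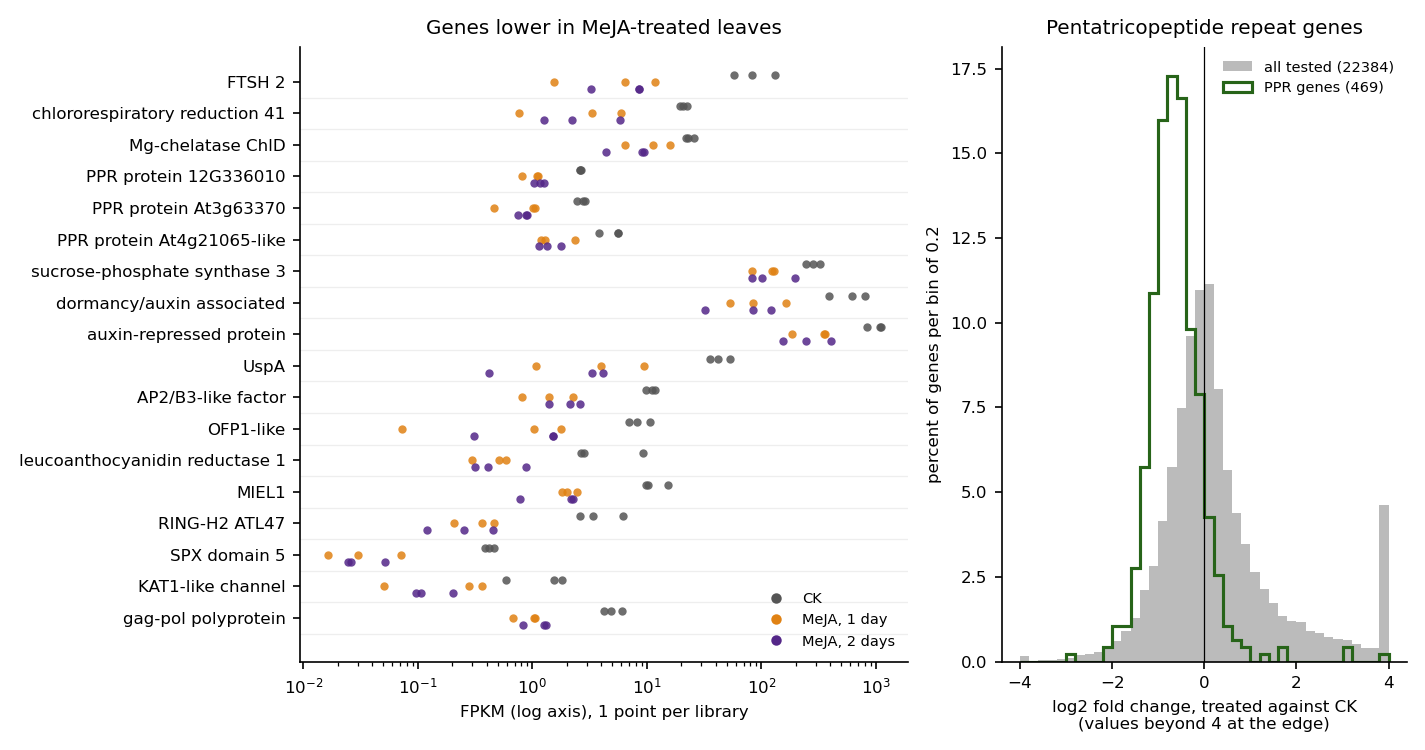
FPKM in each library, on a log axis, of genes lower in treated leaves, with CK and treated libraries marked by group (left), and the log2 fold changes of pentatricopeptide repeat (PPR) genes and of all tested genes as percent of genes per bin of 0.2 (right). FTSH2 was at 58.0, 132 and 82.4 FPKM in the CK libraries and at no more than 11.8 in the treated ones.

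Heat shock proteins and chaperones showed no common direction. Of 99 tested, 3 were higher (0 without CK2 or CK3, 1 without CK1, 2d1 or 2d3, 5 without 1d1 and 6 without 1d2) and 3 lower (0 without CK1, CK2 or CK3, 1 without 1d3 and 5 without 1d2), and the median log2 of 0.01 turned to -0.13 with upper-quartile scaling. That is 3.03% each way, against 6.56% higher and 2.92% lower of all genes. The 3 higher ones were nematode resistance proteins named HSPRO, which are not chaperones, and none of the 94 others was higher in edgeR (DESeq2 called 7, and 11 had an unadjusted edgeR p under 0.05). HSPRO2 (PchiChr4G123130) was at 9.08, 6.48 and 4.22 FPKM in CK and at 31.5, 36.9 and 139.9 in treated leaves, with 1d2 highest (log2 3.20, SE 0.66, edgeR adjusted p = 0.0208). Without CK1, CK2 or CK3 (edgeR adjusted p = 0.0727, 0.0837 and 0.0991) it was no longer called, with a log2 of 2.58 without 1d2. Genes of histones, cyclins and replication were higher in 4 (1 without CK1, CK2 or CK3 and 2 without 1d3, 2d1, 2d2 or 2d3) and lower in 5 (0 without CK2 or CK3 and 1 without CK1) of 105. Their shares were 3.81% and 4.76%. A subunit of chromatin assembly factor 1 (PchiChr6G170800), which deposits histones at replication in yeast and animals, was at 0 in all CK libraries and at 1.60, 5.92 and 8.38 FPKM in treated leaves, at least 201-fold above the floor (log2 10.68, SE 1.06, edgeR adjusted p = 0.00323). Cytosolic ribosomal proteins had 0 higher and 0 lower of 72 in edgeR, with a median log2 of -0.00269, which turned positive in DESeq2. Higher calls numbered 1 without CK2 and 3 without 1d2. At an unadjusted edgeR p under 0.05, 8 were higher and 2 lower, and DESeq2 called 5 and 1.

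Genes named for retroelements, listed after their values were seen, were lower in 9 of 47 (3 without CK1, CK2 or CK3 and 5 without 1d3) and higher in 1. A gag-pol polyprotein gene (PchiChr1G010090) was at 4.86, 4.19 and 6.11 FPKM in CK and at 0.684, 1.04 and 1.31 in treated leaves (log2 -2.19, SE 0.20, edgeR adjusted p = 0.00191). Its neighbour (PchiChr1G010080) was at 3.82, 5.18 and 3.48 FPKM in CK and 0.447, 0.654 and 1.16 in treated leaves (log2 -2.36, SE 0.28, edgeR adjusted p = 0.00312). Both were below CK in all treated libraries.

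KEGG pathways of the deposited table gave a grouping that the name lists did not use. By share called higher, the leading pathways of at least 20 tested genes were Flavone and flavonol biosynthesis (8 of 34), Other types of O-glycan biosynthesis (7 of 36), Plant hormone signal transduction (70 of 363), alpha-Linolenic acid metabolism (15 of 84), Amino sugar and nucleotide sugar metabolism (24 of 149) and Plant-pathogen interaction (61 of 379). Alpha-linolenic acid metabolism, the pathway that leads to jasmonates, had a median log2 of 1.03. By share called lower they were Cutin, suberine and wax biosynthesis (10 of 70), Stilbenoid, diarylheptanoid and gingerol biosynthesis (3 of 22), Fatty acid degradation (5 of 62), RNA polymerase (6 of 80), Isoquinoline alkaloid biosynthesis (2 of 27) and Pyrimidine metabolism (11 of 184). In the pathway for cutin, suberine and wax, which build the leaf surface, 1 gene was higher. Genes can belong to several pathways, and the pathways were ranked on these values.

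Part of the shared response lay in runs of neighbouring genes. Of genes called and separated in the same direction, 189 lay in 45 runs of 3 or more, 41 higher and 4 lower. The longest had 17 genes without a known name, PchiChr6G190090 to PchiChr6G190250 on chromosome 6 (block 999833723, 273145325 to 273520012), whose log2 fold changes ran only from 4.62 to 5.26. The next were 10 genes on chromosome 1, 9 of them allergen copies, at 1.30 to 5.35, and the 8 CYP728Q13 genes. Runs of 5 held CYP725A9, peroxidase and apoptosis-inducing factor genes, and a run of 4 held WRKY genes. Reads of near-identical neighbours may be shared among them, so a run is not that many independent changes.

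Some genes had counts in a single group only. In all, 42 shared higher genes had 0 counts in every CK library and 7 shared lower genes had 0 in every treated library. The former included the OPDA reductase, CYP725A13, LOB-domain and chromatin assembly genes given above. Of the latter, a nitrate and peptide transporter (NPF) gene (PchiChr6G166710) was at 0.139, 0.212 and 0.591 FPKM in CK and at 0 in all treated libraries, so treated leaves were at least 65.3-fold lower (log2 -8.01, SE 1.12, edgeR adjusted p = 0.0301). Its adjusted p missed the threshold without CK1, CK2 or CK3 (edgeR adjusted p = 0.0894, 0.101 and 0.117), with a log2 of -7.15 without CK3. Floors and counts cover counting error only.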

How the data were processed

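Leaf polyA RNA was sequenced in 9 libraries, grouped by their treatment labels. Reads went through fastp, HISAT2 and HTSeq per the submitters' processing notes. The sources used here name no version, genome build, annotation or strand setting. One table was deposited, with an estimated count and an FPKM value per gene and library, a description, KEGG pathways and a position. The deposited counts look like estimates rounded upwards, since 100% of 389 low values exceeded a value proportional to FPKM by 0 to 1 (tolerance 0.05). They were used as they stood. Treated and CK libraries were compared by the two-sided quasi-likelihood test of edgeR 4.0.16 under R 4.3.3, with TMM factors of 0.878 to 1.09, filterByExpr at a minimum count of 10 and Benjamini-Hochberg adjustment over all genes kept (threshold 0.05). A fit of 3 groups gave the estimates per day and the test of day 2 against day 1. Separation and levels used the authors' FPKM. Alternatives used limma 3.58.1, DESeq2 1.42.0, other scalings and filters, and each library left out. The scripts were tested on simulated data. Total counts were 48893949 to 58703021 per library, and precision also rested on the spread among libraries and on only 3 CK libraries. Where every library of a group had 0 counts, fold bounds used 3 counts summed over that group. Gene names are the deposited descriptions, from matches to other species. The members and gene lists were chosen with earlier results of these data known, and 22 lists were added with the values of this comparison in view. Named genes were, among called and separated genes with an informative description, the 10 higher and 10 lower with the widest gap between CK and treated libraries, the 5 most abundant in each direction, each list's 2 called members of lowest adjusted p (3 for lists made later), and the 3 most abundant at 0 in CK or in treated leaves. Not all of them are printed. Genes just inside and outside the separation rule, and neighbours of named genes, were added. No sequence was used here.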

Additional observations from a re-analysis of the deposited data

Results flagged for a closer look

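For 19 of the 143 named genes, 1 treated library lay further from the other 5 than Dixon's 95% critical value for 6 samples allows. Chance flags about 1 in 20 such groups, and the treated group also holds both days. Library 1d2 lay above the other treated libraries for the GST gene (PchiChr5G128230, 165 FPKM against 45.4 to 62.3), a peroxidase (PchiChr5G147320, 75.4 FPKM against 36.9 to 46.3), the phi class glutathione transferase (PchiChr5G135100, 390.0 FPKM against 106 to 156), HSPRO2 (PchiChr4G123130, 139.9 FPKM against 31.5 to 40.7) and proline dehydrogenase 2 (PchiChr4G123710, 180.1 FPKM against 41.2 to 71.7). Library 2d2 lay below the other treated libraries for MIEL1 (PchiChr4G102480, 0.780 FPKM against 1.81 to 2.44), the bHLH112-like factor (PchiChr2G037800, 4.02 FPKM against 6.78 to 8.79) and callose synthase 12 (PchiChr12G328060, 10.02 FPKM against 12.5 to 13.5). Library 1d1 lay below the other treated libraries for MYC2a (PchiChr2G047860, 28.9 FPKM against 36.1 to 41.1) and CML25 (PchiChr7G200730, 39.0 FPKM against 74.05 to 81.3). Library 1d2 lay below the other treated libraries for R2R3MYB8 (PchiChr5G142790, 42.8 FPKM against 85.7 to 96.6), R2R3MYB20 (PchiChr10G295880, 101 FPKM against 184 to 252), a DnaJ domain gene (PchiChr11G309280, 3.03 FPKM against 4.81 to 5.64) and the S-receptor-like kinase SD2-5 (PchiChr1G017120, 0.533 FPKM against 0.878 to 1.09). Library 2d2 lay above the other treated libraries for a CYP867B5 gene (PchiChr3G088320, 2.99 FPKM against 1.10 to 1.63), a LOB-domain gene (PchiChr12G328590, 18.0 FPKM against 1.51 to 2.94) and a DMR6-like oxygenase 2 (PchiChr2G060710, 35.4 FPKM against 2.58 to 7.18). Library 2d1 lay above the other treated libraries for a pollen allergen copy (PchiChr1G029300, 32.4 FPKM against 16.6 to 20.7). Library 1d1 lay above the other treated libraries for RING-H2 protein ATL74 (PchiChr11G316800, 1.88 FPKM against 0.984 to 1.26). In all of them the treated libraries still lay on 1 side of CK.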

How the results depend on the processing

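Direction held for all 143 named genes under each alternative run, and 69 of them kept their call without each of the 9 libraries. The named genes were chosen by their calls in these same libraries, so their held direction follows largely from that choice and is a description. Over the 9 fits that each leave out 1 library, genes called higher numbered 420 to 2015, called lower 127 to 1062, called and separated higher 420 to 1947 and called and separated lower 127 to 1045. The lowest counts came from fits with only 2 CK libraries. Without 1d2 and 2d2 they were 2303, 1521, 2272 and 1517. In each fit with libraries left out, separation was asked only of those left in, which is a looser rule. DESeq2 called 3183 higher and 1852 lower, with 2062 and 1739 separated, and 72 genes between the days. Upper-quartile scaling gave 1316 lower and 1268 lower and separated, and limma on log2(FPKM + 1) 1159 and 1124, where the median of all genes was -0.10. The cause of these differences was not tested. The counts stayed within 1.5 times of the reported ones in the fit of 3 groups, with median-of-ratios scaling, with a pseudocount of 0.1, with no filter and with a filter at 1 CPM. A fit with the replicate number as a block called 1581 higher and 889 lower, 1436 and 857 of them separated, and it ended the calls of the lower ABC transporter-like gene (PchiChr12G330160, edgeR adjusted p = 0.0783) and the NPF gene (PchiChr6G166710, 0.0871). The labels give same-numbered libraries no link other than the number. Correlations of their deviations from the group means ran from -0.123 to 0.307 over 9 pairs, with 4 above 0.1. Between the days, 1d1 and 2d1 were at 0.307, 1d3 and 2d3 at 0.262 and 1d2 and 2d2 at -0.018. The crossed pairs 1d1 with 2d3 and 1d3 with 2d1 were at -0.260 and -0.333. A shared origin of same-numbered libraries was not tested. Limits are the 3 CK libraries, near-identical copies, rounded estimated counts and the unknown handling of CK.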
